A study of Mus musculus with 2 samples.

Results

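Transcripts of 60 mouse genes of the mitotic spindle and the kinetochore were followed in 2 RNA-seq libraries of sorted bone marrow cells. The genes were taken by symbol, and each of the 60 had a row of its own among the 35798 rows of the deposited table. Nestin-GFP+ cells that lacked CD45, CD31 and Ter119, the surface markers of leukocytes, endothelium and red cells, were sorted from adult C57BL/6 mice. The JAK2-V617F library came from Nes-gfp;Mx1-cre;JAK2-V617F mice, in which pIpC (a double-stranded RNA analogue that induces interferon) switches on Cre and, through it, an activated form of the JAK2 kinase that drives myeloproliferative neoplasms. The control library came from littermates labelled Nes-gfp, also given pIpC, and both were collected 6 weeks after pIpC. The labels name neither Mx1-cre nor JAK2-V617F for the controls, so Cre and the mutation cannot be told apart as sources of a difference. Mx1-cre is known to recombine in blood cells and in other tissues. Cells of 3 animals were pooled for each library, with 1 library for each genotype (n = 1). No value below has a replicate error and no test between genotypes is possible: every difference is one between 2 pools of cells.

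Mitosis is driven by CDK1 bound to A-type and B-type cyclins. Kinetochores assemble on centromeric chromatin and hold the microtubules of the spindle, and the spindle checkpoint delays anaphase until every chromosome is attached. The anaphase-promoting complex (APC/C) then marks securin and the cyclins for destruction, and kinesins and the central spindle lead the cell through cytokinesis. Most of these genes are transcribed late in the cell cycle, so their RNA in bulk samples reflects cells in cycle. Their promoters are known for a cell cycle homology region (CHR), the element read by the DREAM and MuvB complexes, and for CCAAT boxes, which are bound by NF-Y. In bone marrow, erythroid and myeloid precursors are the main dividing cells, whereas most perivascular stromal cells of the adult are quiescent.

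The promoters of 4 of the genes are shown because they belong to the mitotic kinase Cdk1, to its B-type cyclin partners, of which one differed more between the libraries than the other, and to Ect2, which lay closest to the 2-fold line among the genes past it. Each runs 5′ to 3′ over 250 bases before and 50 bases after the start of the gene in RefSeq (GRCm38.p6). Capitals mark TTTGAA or its complement TTCAAA and TTCGAA (letters of the CHR), CCAAT or its complement ATTGG, and the E2F letters TTTGGCGC, TTTCGCGC, TTTCCCGC and TTTGCCGC on either strand. The windows are chr9:70421505-70421804 for Ccnb2, chr13:100786437-100786736 for Ccnb1, chr10:69352863-69353162 for Cdk1 and chr3:27153829-27154128 for Ect2, all on the minus strand.
Ccnb2: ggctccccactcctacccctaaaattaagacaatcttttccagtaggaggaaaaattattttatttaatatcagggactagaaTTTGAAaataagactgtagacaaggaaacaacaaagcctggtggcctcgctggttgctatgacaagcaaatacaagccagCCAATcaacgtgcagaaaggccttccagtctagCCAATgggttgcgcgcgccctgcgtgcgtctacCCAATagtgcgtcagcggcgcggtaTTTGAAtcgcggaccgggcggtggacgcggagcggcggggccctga
Ccnb1: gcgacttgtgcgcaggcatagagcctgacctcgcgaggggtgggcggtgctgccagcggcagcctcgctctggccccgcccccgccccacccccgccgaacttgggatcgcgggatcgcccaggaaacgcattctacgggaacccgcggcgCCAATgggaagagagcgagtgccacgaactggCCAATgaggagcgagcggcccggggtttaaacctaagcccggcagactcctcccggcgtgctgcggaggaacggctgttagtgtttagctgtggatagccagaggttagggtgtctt
Cdk1: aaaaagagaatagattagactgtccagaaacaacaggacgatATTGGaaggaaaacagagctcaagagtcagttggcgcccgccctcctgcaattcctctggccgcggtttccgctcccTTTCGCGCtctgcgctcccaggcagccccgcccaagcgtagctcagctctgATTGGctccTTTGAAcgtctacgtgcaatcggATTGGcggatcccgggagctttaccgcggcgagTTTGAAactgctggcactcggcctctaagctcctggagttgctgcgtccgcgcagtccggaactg
Ect2: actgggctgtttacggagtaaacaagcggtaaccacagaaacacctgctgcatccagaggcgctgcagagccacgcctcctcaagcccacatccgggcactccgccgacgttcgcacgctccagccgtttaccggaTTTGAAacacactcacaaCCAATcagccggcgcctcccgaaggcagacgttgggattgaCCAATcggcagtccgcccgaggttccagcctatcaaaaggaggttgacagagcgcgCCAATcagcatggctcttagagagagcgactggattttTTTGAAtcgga
Ccnb2, Cdk1 and Ect2 each held the TTTGAA letters at 2 places and CCAAT at 3. Ccnb1 held CCAAT at 2 places and neither TTTGAA nor TTCGAA in this window. Other forms of the CHR were not searched, so a CHR in this promoter is not excluded. No base lay in more than 1 match in these 4 promoters. RefSeq promoters were matched for 52 of the 60 genes. TTTGAA on either strand was present in 34 of the 52 (65.4%), against 16.5% of 17492 promoters of protein-coding genes. TTCGAA was present in 5 of the 52 (9.62%), against 1.87% of protein-coding promoters. CCAAT was present in 39 (75%), against 39.0%, and CHR letters together with a CCAAT box in 32 (61.5%), against 7.43%. The E2F letters were present in 6 (11.5%), against 2.92%. Promoters with and without these letters are set beside the expression values further on.

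Expression was deposited as FPKM, that is fragments scaled by transcript length and library size, so levels can be compared between genes. All 60 genes were above 5 FPKM in both libraries. They reached from 7.53 FPKM (Cdc25c) to 247 FPKM (Mki67) in the JAK2-V617F library and from 6.81 FPKM (Cdc25c) to 287 FPKM (Ccna2) in the control library. The median level was 33.3 FPKM in the JAK2-V617F library and 41.0 FPKM in the control library, against 18.5 FPKM in JAK2-V617F cells and 19.4 FPKM in control cells over the 9594 protein-coding rows at 5 FPKM or more in either library. Mki67 was the 381st highest row of the table in the JAK2-V617F library and the 361st highest in the control library. The summed FPKM of the 60 genes was 3353 in the JAK2-V617F library, or 0.410% of its total, and 4128 in the control library, or 0.447%. The order of the levels was alike in both libraries (Pearson's r of log2 FPKM 0.95, Spearman's rho 0.93 over the 60 genes, given as a description only).

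**Figure D1:**
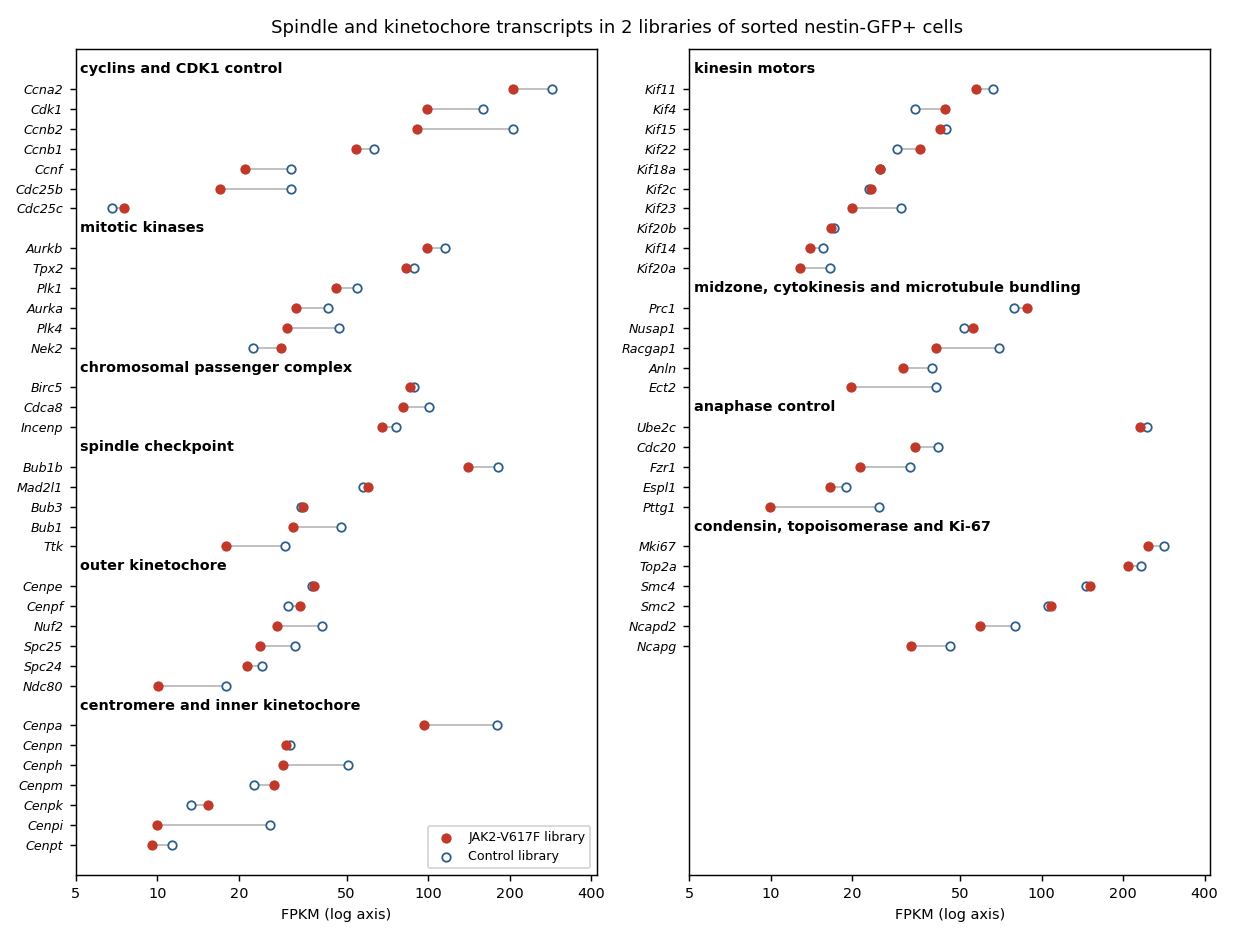
FPKM of each of the 60 genes on a log axis, grouped by role, with the JAK2-V617F library as filled red points and the control library as open blue points, 1 pooled library each. The widest gaps are those of Pttg1, Cenpi and Ccnb2, where the JAK2-V617F value lies left of the control value, and Kif18a shows no visible gap.

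Differences between the libraries are given as log2((JAK2-V617F FPKM + 1)/(control FPKM + 1)), so that a negative value means lower in the JAK2-V617F library and 1 on this scale is 2-fold. Of the 60 genes, 4 were at least 2-fold lower in the JAK2-V617F library (6.67%) and 0 were at least 2-fold higher. Over all 15425 rows that reached 1 FPKM, 11.3% passed 2-fold downwards and 13.7% passed it upwards. Among protein-coding rows at 5 FPKM or more, the range in which the 60 genes lie, 7.95% were lower and 6.7% higher by this measure. The share of lower genes therefore lay near the background. A ratio below 1 was found for 44 of the 60 genes (73.3%), against 51.8% of all rows and 55.8% of protein-coding rows at 5 FPKM or more. With both libraries rescaled to the same FPKM sum, 35 of the 60 genes had a ratio below 1, against 41.9% of all rows. The median log2 ratio of the 60 genes was -0.22, against -0.03 over all rows and -0.08 over protein-coding rows at 5 FPKM or more. Rescaling to the same sum moved the median of all rows to 0.14 and that of the 60 genes to -0.04. Relative to all rows, the 60 genes lay at -0.19 as deposited and at -0.18 after that rescaling. A rescaling shifts every row by nearly the same amount, so this difference could hardly change and the agreement is no support for it. Relative to all rows at 5 FPKM or more, the 60 genes lay at -0.14 as deposited. The middle range of the 60 log2 ratios, from the lower to the upper quartile, ran from -0.55 to 0.01, and that of protein-coding rows at 5 FPKM or more from -0.45 to 0.31.

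**Figure D2:**
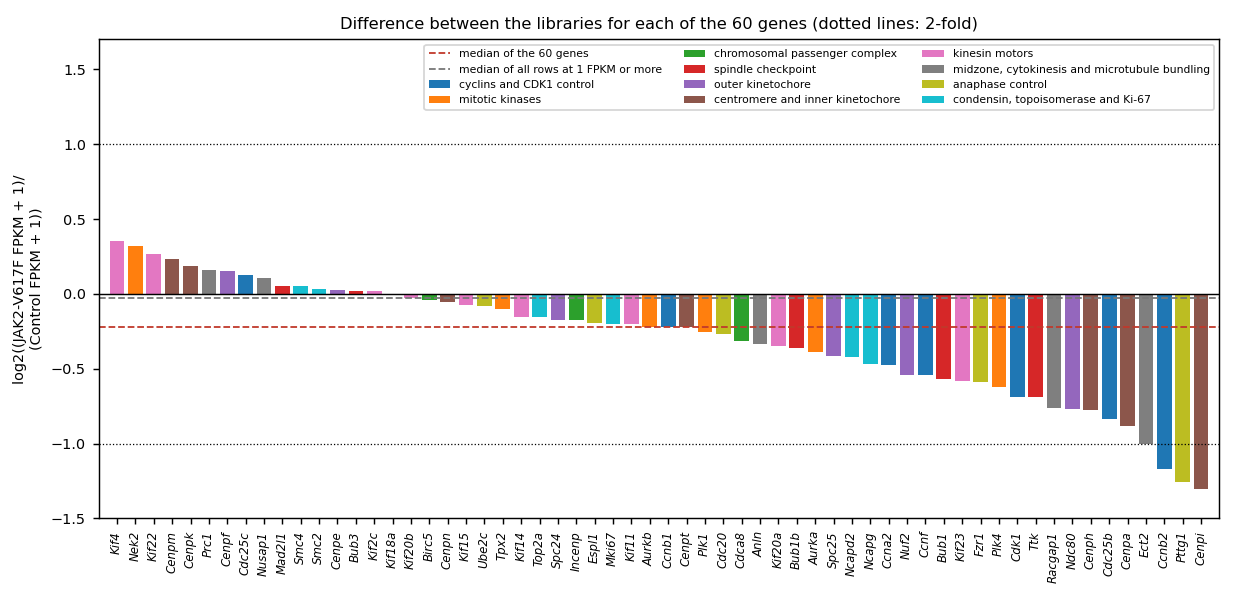
Log2 ratio of the JAK2-V617F library over the control library for each of the 60 genes, ordered from high to low and coloured by role, with dotted lines at 2-fold and dashed lines at the median of the 60 genes (-0.22) and of all rows at 1 FPKM or more (-0.03). Bars run from 0.35 for Kif4 to -1.30 for Cenpi, and 4 bars pass the lower dotted line.

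**Figure D3:**
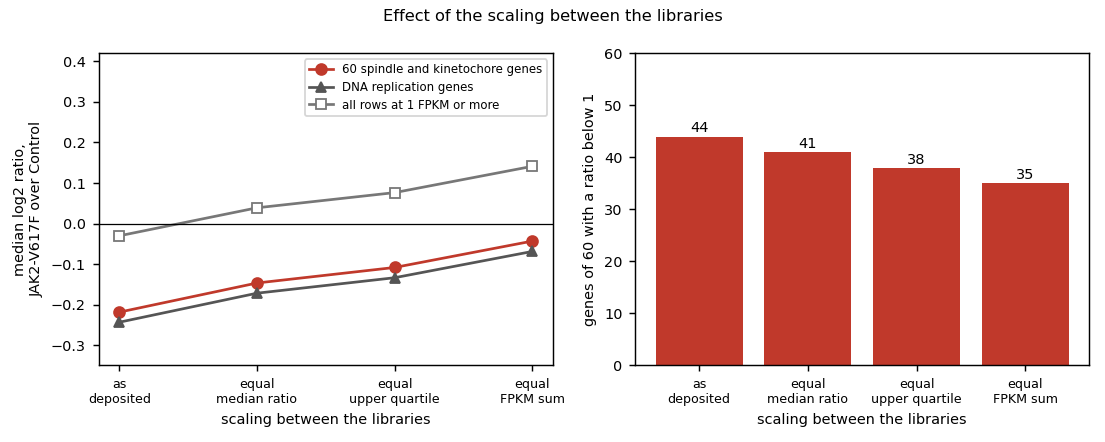
Left, median log2 ratio of the JAK2-V617F library over the control library for the 60 genes (red circles), DNA replication genes (grey triangles) and all rows at 1 FPKM or more (open squares) under the deposited scale and 3 rescalings; right, the number of the 60 genes with a ratio below 1. A common factor necessarily moves the medians together, from -0.22 to -0.04 for the 60 genes. The number of genes below 1 goes from 44 as deposited to 35 with equal FPKM sums.

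Depth set the precision of these values. Steps in the FPKM of short and rare transcripts put the libraries at about 6240000 fragments (JAK2-V617F) and 5410000 fragments (control). For each of the 60 genes, the shortest coding transcript of GENCODE vM21 gave the lowest number of fragments that its FPKM could stand for. This number was smallest for Pttg1, at 29 fragments in the JAK2-V617F library and 64 in the control library, and largest for Mki67, at 15272 in the JAK2-V617F library and 15215 in the control library. The 95% Clopper-Pearson intervals of a ratio given below use these lowest numbers, are approximate and cover counting error only, since no molecular identifiers are mentioned and the cDNA was amplified. For 15 of the 60 genes the row's locus also overlapped another protein-coding gene, namely Ccna2, Cdc25b, Cdc25c, Cdca8, Bub3, Cenpt, Kif4, Kif18a, Kif20a, Prc1, Nusap1, Cdc20, Fzr1, Ube2c and Ncapg. The use of strand is not given in the sources used here, so reads of overlapping genes may not be told apart in those rows.

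Cyclins and the regulators of CDK1 had the lowest median log2 ratio of the 10 roles, at -0.54 over 7 genes. Cdk1, the kinase of mitotic entry, was at 99.0 FPKM in the JAK2-V617F library and 160.1 FPKM in the control library (log2 ratio -0.69). The A-type cyclin Ccna2 was at 207 FPKM in JAK2-V617F cells and 287 FPKM in control cells (-0.47). Ccnb2 (XLOC_032448, chromosome 9, 70407689 to 70421554, GRCm38) was at 91.4 FPKM in the JAK2-V617F library and 206 FPKM in the control library (-1.17). Of the B-type cyclins it was the one past 2-fold, and after rescaling to the same sum it lay just within (-0.99). The lowest fragment numbers of Ccnb2, from its shortest coding transcript, were about 782 in the JAK2-V617F library and 1530 in the control library. These numbers give a ratio of 0.443 (counting interval 0.406 to 0.483). A pseudogene row, Ccnb2-ps, was at 1.53 FPKM in JAK2-V617F cells and 1.19 FPKM in control cells. Ccnb1, the essential mitotic cyclin, was at 54.3 FPKM in the JAK2-V617F library and 63.4 FPKM in the control library (-0.22). Ccnb2 thus stood at 1.68 times Ccnb1 within the JAK2-V617F library and at 3.26 times within the control library, a comparison that no scaling between libraries can move. The same kind of shift was seen for the phosphatases that activate CDK1. Cdc25b was at 17.1 FPKM in the JAK2-V617F library and 31.3 FPKM in the control library (-0.83), and 3 other coding genes lie within its locus. Cdc25c was at 7.53 FPKM in JAK2-V617F cells and 6.81 FPKM in control cells (0.13), the lowest of the 60 genes in both libraries. Cdc25b was therefore 2.27 times Cdc25c in the JAK2-V617F library and 4.59 times in the control library. Ccnf, an F-box cyclin of the ubiquitin system, was at 21.1 FPKM in JAK2-V617F cells and 31.2 FPKM in control cells (-0.54).

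Kinases of the spindle and their activator were mostly closer together (median -0.24 over 6 genes, none past 2-fold). Aurkb, the kinase that corrects faulty microtubule attachments, was at 98.8 FPKM in the JAK2-V617F library and 115 FPKM in the control library (-0.22). Aurka, which builds spindle poles, was at 32.4 FPKM in JAK2-V617F cells and 42.8 FPKM in control cells (-0.39). Its activator Tpx2 was at 82.6 FPKM in JAK2-V617F cells and 88.7 FPKM in control cells (-0.10, and above 0 after rescaling to the same sum). Plk1, the Polo kinase of mitosis, was at 45.6 FPKM in JAK2-V617F cells and 54.6 FPKM in control cells (-0.26), while Plk4, which controls centriole duplication, was at 30.1 FPKM in JAK2-V617F cells and 46.8 FPKM in control cells (-0.62). Nek2, a kinase of centrosome separation, went the other way, at 28.5 FPKM in the JAK2-V617F library and 22.6 FPKM in the control library (0.32, counting interval of the ratio 1.10 to 1.44). The partners of Aurkb in the chromosomal passenger complex differed little. The survivin gene Birc5 was at 85.7 FPKM in JAK2-V617F cells and 88.4 FPKM in control cells (-0.04), the scaffold Incenp at 67.7 FPKM in JAK2-V617F cells and 76.4 FPKM in control cells (-0.17), and the borealin gene Cdca8 at 81.0 FPKM in JAK2-V617F cells and 101 FPKM in control cells (-0.32). Birc5 and Incenp lay above 0 after rescaling to the same sum.

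Spindle checkpoint genes were split. Bub1b, which encodes the checkpoint inhibitor BUBR1, was the highest of the 5 at 141 FPKM in the JAK2-V617F library and 181 FPKM in the control library (-0.36). The checkpoint kinase genes were lower in the JAK2-V617F library, with Bub1 at 31.7 FPKM in JAK2-V617F cells and 47.6 FPKM in control cells (-0.57) and Ttk at 18.0 FPKM in JAK2-V617F cells and 29.6 FPKM in control cells (-0.69). Mad2l1, the MAD2 subunit of the checkpoint complex, was at 59.8 FPKM in JAK2-V617F cells and 57.5 FPKM in control cells (0.06). Bub3 was at 34.5 FPKM in JAK2-V617F cells and 34.0 FPKM in control cells (0.02), but its row spans 2962 kb and 30 other coding genes.

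The outer kinetochore, which grips microtubules, had a median of -0.29 over 6 genes, and none passed 2-fold. Of the 4 genes of the NDC80 complex, Ndc80, Nuf2 and Spc25 were lower in the JAK2-V617F library under each scaling, while the difference of Spc24 lay within its counting error. Ndc80 was at 10.1 FPKM in the JAK2-V617F library and 17.9 FPKM in the control library (-0.77), and Nuf2, its partner in the microtubule-binding head, at 27.6 FPKM in JAK2-V617F cells and 40.6 FPKM in control cells (-0.54). Of the dimer that anchors the complex, Spc25 was at 23.9 FPKM in JAK2-V617F cells and 32.2 FPKM in control cells (-0.42) and Spc24 at 21.5 FPKM in JAK2-V617F cells and 24.3 FPKM in control cells (-0.17, counting interval of the ratio 0.619 to 1.29). After rescaling to the same sum, the log2 ratio of Spc24 was -0.0014. Among the large corona proteins, the motor Cenpe was at 37.8 FPKM in JAK2-V617F cells and 37.2 FPKM in control cells (0.02, counting interval of the ratio 0.95 to 1.09), and Cenpf at 33.7 FPKM in JAK2-V617F cells and 30.3 FPKM in control cells (0.15).

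Genes of the centromere and inner kinetochore varied most among the 10 roles (SD of the log2 ratios 0.59 over 7 genes). Cenpi (XLOC_033896, chromosome X, 134308084 to 134362639) encodes a subunit of the constitutive centromere network. It was at 10.005 FPKM in the JAK2-V617F library and 26.1 FPKM in the control library (-1.30), the lowest log2 ratio of the 60 genes, with a ratio of 0.384 (counting interval 0.321 to 0.458). Cenpi stayed past 2-fold under every alternative that was run. Cenpa, the histone H3 variant that marks centromeres, was at 97.0 FPKM in JAK2-V617F cells and 179.9 FPKM in control cells (-0.88), the nearest to 2-fold among the genes within it. Cenph, another network subunit, was at 29.1 FPKM in JAK2-V617F cells and 50.6 FPKM in control cells (-0.78). The remaining subunits lay closer to their control level. Cenpm was at 26.9 FPKM in JAK2-V617F cells and 22.8 FPKM in control cells (0.23), Cenpk, which binds Cenph, at 15.3 FPKM in JAK2-V617F cells and 13.3 FPKM in control cells (0.19), and Cenpn, a reader of CENP-A nucleosomes, at 29.8 FPKM in JAK2-V617F cells and 31.0 FPKM in control cells (-0.06, and above 0 after rescaling to the same sum). Cenpt, which links centromeric DNA to the NDC80 complex, was at 9.59 FPKM in JAK2-V617F cells and 11.4 FPKM in control cells (-0.22). Cenph and Ccnb1 are neighbours 2.75 kb apart on chromosome 13, and their log2 ratios were -0.78 and -0.22.

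Kinesin motors had the median closest to 0 of the 10 roles (-0.05 over 10 genes). A ratio above 1 was found for 4 of the 10 (40%), near the 44.2% of protein-coding rows at 5 FPKM or more. Kif4, a chromosome-arm motor that also works at the midzone, had the highest log2 ratio of the 60 genes, at 43.9 FPKM in the JAK2-V617F library and 34.2 FPKM in the control library (0.35, counting interval of the ratio 1.18 to 1.40). Kif22, the chromokinesin Kid, was at 35.4 FPKM in JAK2-V617F cells and 29.3 FPKM in control cells (0.26). The other 2 were nearly level, within counting error. The depolymerase Kif2c was at 23.4 FPKM in JAK2-V617F cells and 23.0 FPKM in control cells (0.02, counting interval of the ratio 0.863 to 1.198), and Kif18a, which damps chromosome oscillation, at 25.3 FPKM in both (counting interval of the ratio 0.880 to 1.14). Of the kinesins outside the 60 genes, Kif18b was at 31.1 FPKM in JAK2-V617F cells and 49.2 FPKM in control cells (-0.64), and Kifc1 at 11.7 FPKM in JAK2-V617F cells and 16.4 FPKM in control cells (-0.46). Kif11, the bipolar motor Eg5, was at 57.5 FPKM in JAK2-V617F cells and 66.3 FPKM in control cells (-0.20), and Kif15, its back-up, at 42.1 FPKM in JAK2-V617F cells and 44.4 FPKM in control cells (-0.07). Among the motors of cytokinesis, Kif23 was at 19.9 FPKM in JAK2-V617F cells and 30.3 FPKM in control cells (-0.58), the lowest log2 ratio of the motors. Kif20a was at 12.8 FPKM in JAK2-V617F cells and 16.5 FPKM in control cells (-0.35), Kif14 at 13.9 FPKM in JAK2-V617F cells and 15.6 FPKM in control cells (-0.15), and Kif20b at 16.7 FPKM in JAK2-V617F cells and 17.1 FPKM in control cells (-0.03). Kif15, Kif14 and Kif20b lay above 0 after rescaling to the same sum.

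Kif23 joins Racgap1 in centralspindlin, which recruits Ect2 to start the cleavage furrow, and these 3 genes were lower together. Ect2 (XLOC_019447, chromosome 3, 27097222 to 27153878), the RhoA exchange factor of cytokinesis, was at 19.7 FPKM in the JAK2-V617F library and 40.6 FPKM in the control library (-1.01). Its ratio was 0.485 (counting interval 0.432 to 0.544), and it lay within 2-fold under each of the 3 other scalings (-0.94 to -0.84). Racgap1 was at 40.7 FPKM in JAK2-V617F cells and 69.5 FPKM in control cells (-0.76), so that it stood at 2.04 times Kif23 in the JAK2-V617F library and 2.29 times in the control library. Anln, the anillin scaffold of the contractile ring, was at 30.9 FPKM in JAK2-V617F cells and 39.3 FPKM in control cells (-0.34). The microtubule bundlers had ratios above 1, for Nusap1 within counting error. Prc1, which cross-links the midzone, was at 88.7 FPKM in JAK2-V617F cells and 79.3 FPKM in control cells (0.16), and Nusap1 at 55.8 FPKM in JAK2-V617F cells and 51.8 FPKM in control cells (0.11, counting interval of the ratio 0.980 to 1.19).

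In anaphase control, all 5 genes had ratios below 1 as deposited, against 55.8% of protein-coding rows at 5 FPKM or more. Pttg1 (XLOC_004909, chromosome 11, 43420250 to 43426251), which encodes securin, the inhibitor of separase, was at 9.90 FPKM in the JAK2-V617F library and 25.1 FPKM in the control library (-1.26). It stayed past 2-fold under every alternative that was run, and its ratio from the lowest fragment numbers was 0.392 (counting interval 0.244 to 0.617). Espl1, which encodes separase, was at 16.5 FPKM in JAK2-V617F cells and 19.0 FPKM in control cells (-0.20, and -0.03 after rescaling to the same sum). Separase RNA was thus at 1.66 times securin RNA in the JAK2-V617F library and at 0.758 times in the control library. Their order differed between the libraries, but no interval was computed for it. Pttg1 may rest on as few as 29 fragments in the JAK2-V617F library and 64 in the control library. Its 6 coding transcripts, of 634 to 1674 nt, also make its level against Espl1 uncertain. The APC/C activator Cdc20 was at 34.1 FPKM in JAK2-V617F cells and 41.3 FPKM in control cells (-0.27), and the later activator Fzr1, which encodes CDH1, at 21.3 FPKM in JAK2-V617F cells and 32.5 FPKM in control cells (-0.59). Ube2c, the ubiquitin-conjugating enzyme of the APC/C, was among the 3 highest of the 60 genes in both libraries, at 231 FPKM in JAK2-V617F cells and 244 FPKM in control cells (-0.08, and above 0 after rescaling to the same sum).

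The role with the highest median level in both libraries was that of chromosome condensation and Ki-67. Mki67, the marker of cycling cells that coats mitotic chromosomes, was at 247 FPKM in the JAK2-V617F library and 284 FPKM in the control library (-0.20). Top2a, which untangles sister chromatids, was at 209 FPKM in JAK2-V617F cells and 233 FPKM in control cells (-0.16, and above 0 after rescaling to the same sum). The ratio of Mki67 to Top2a was 1.18 within the JAK2-V617F library and 1.22 within the control library. The core condensin subunits were at nearly the same level in both, with Smc4 at 151 FPKM in JAK2-V617F cells and 146 FPKM in control cells (0.05) and Smc2 at 108 FPKM in JAK2-V617F cells and 105 FPKM in control cells (0.03). The regulatory subunits of condensin I were lower in the JAK2-V617F library, with Ncapd2 at 59.2 FPKM in JAK2-V617F cells and 79.6 FPKM in control cells (-0.42) and Ncapg at 32.9 FPKM in JAK2-V617F cells and 45.9 FPKM in control cells (-0.47). Smc4 was at 1.40 times Smc2 in the JAK2-V617F library and at 1.38 times in the control library, and Ncapd2 at 1.80 times Ncapg in the JAK2-V617F library and 1.73 times in the control library.

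Position and promoter letters were set beside these differences. The 60 genes lie on 17 chromosomes, with chromosome 2 holding the most (9 genes). The 32 genes with CHR letters and a CCAAT box had a median log2 ratio of -0.29, and the 20 without that pair -0.15. With TTTGAA the median was -0.26 (34 genes) and without it -0.22 (18 genes). With CCAAT it was -0.27 (39 genes) and without it -0.07 (13 genes), the widest gap of these splits. With TTCGAA it was -0.36 (5 genes) and without it -0.22 (47 genes), and with the E2F letters -0.25 (6 genes) and without them -0.24 (46 genes). Of the 4 genes past 2-fold, Ccnb2 and Ect2 held TTTGAA and CCAAT, Cenpi held CCAAT without CHR letters, Pttg1 held neither, and none held TTCGAA or the E2F letters. Of the 60 log2 ratios, the level of the gene gave no ordering (Pearson's r 0.03, Spearman's rho 0.02 with the mean log2 FPKM, as a description over genes of the same 2 libraries).

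Lists of related genes outside the 60 had median log2 ratios from -0.45 (CDK inhibitors) to -0.05 (G1 cyclins and kinases), against -0.22 for the 60. Of 61 other spindle and kinetochore genes, 5 (8.20%) were at least 2-fold lower in the JAK2-V617F library and 1 higher. Of all rows, 11.3% were lower and 13.7% higher by this measure. Of protein-coding rows at 5 FPKM or more, 7.95% were lower and 6.7% higher, so the share of lower genes lay near the background. The median log2 ratio of the 61 genes was -0.18 as deposited and -0.01 after rescaling to the same sum. The lower ones were Fam83d, which aligns chromosomes (JAK2-V617F 3.30, control 17.3 FPKM), Mad2l2 (JAK2-V617F 20.1, control 70.4 FPKM), the checkpoint-disassembly ATPase gene Trip13 (JAK2-V617F 18.2, control 63.9 FPKM), the checkpoint adaptor Zwilch (JAK2-V617F 22.7, control 49.1 FPKM) and the kinetochore gene Ska1 (JAK2-V617F 7.92, control 18.5 FPKM). Dsn1, of the MIS12 complex, was higher (JAK2-V617F 35.02, control 16.6 FPKM). Zwilch and Ska1 lay within 2-fold after rescaling to the same sum, and Dsn1, Fam83d, Mad2l2 and Trip13 kept their calls under the 3 other scalings. DNA replication genes, transcribed before mitosis, had a median of -0.24 over 32 genes. Of all rows, 51.8% had a ratio below 1, or 41.9% after rescaling to the same sum. Of the 32 genes, 28 had a ratio below 1, or 19 after that rescaling. Of these, Gins3 (JAK2-V617F 6.38, control 17.0 FPKM) and Mcm10 (JAK2-V617F 53.8, control 117 FPKM) were at least 2-fold lower, Mcm10 not after that rescaling. Mitotic regulators had a median of -0.10 over 17 genes, with E2f8, a repressor of E2F targets, past 2-fold as deposited (JAK2-V617F 86.1, control 180.0 FPKM) and within it under the 3 other scalings. Subunits of the APC/C had a median of -0.20 over 13 genes, with Cdc27 higher (JAK2-V617F 173, control 80.7 FPKM). Cohesin and other condensin genes had a median of -0.09 over 16 genes, none past 2-fold, with Esco2 (JAK2-V617F 19.8, control 38.7 FPKM) and Ncaph2 (JAK2-V617F 42.6, control 80.0 FPKM) farthest from 0. G1 cyclins and kinases had a median of -0.05 over 12 genes, with Cdk2 at the 2-fold line (JAK2-V617F 19.5, control 40.1 FPKM) and within it under the 3 other scalings. The medians of mitotic regulators, of cohesin and other condensin genes and of G1 genes lay above 0 after rescaling to the same sum. CDK inhibitors had a median of -0.45 over the 6 that reached 1 FPKM, none past 2-fold, with Cdkn1a (JAK2-V617F 65.8, control 119 FPKM) and Cdkn3 (JAK2-V617F 16.0, control 27.5 FPKM) farthest from 0.

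**Figure D4:**
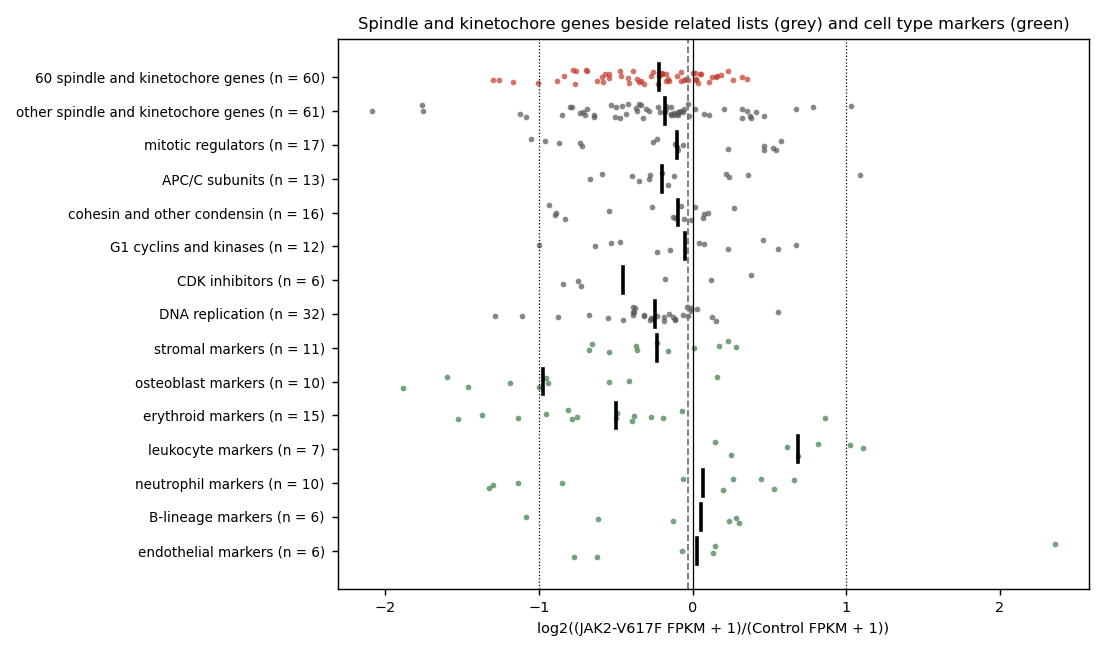
Log2 ratios of the JAK2-V617F library over the control library, 1 point per gene at 1 FPKM or more, for the 60 genes (red), related lists (grey) and cell type markers (green), with black bars at each median, dotted lines at 2-fold and a dashed line at the median of all rows. The 60 genes (-0.22) and the DNA replication genes (-0.24) have nearly the same median, the erythroid (-0.50) and osteoblast (-0.98) markers lie lower and the leukocyte markers (0.69) higher.

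Markers of cell types that differed between the libraries are given here because transcripts of blood cells were present in both sorted pools. Stromal markers had a median log2 ratio of -0.23 over 11 genes, or -0.06 after rescaling to the same sum, and none passed 2-fold. A ratio below 1 was found for 7 of the 11, or 6 after that rescaling. Of all rows, 51.8% had a ratio below 1, or 41.9% after that rescaling. As deposited, 48.2% of all rows had a ratio above 1, 11.3% were at least 2-fold lower and 13.7% at least 2-fold higher. These shares are the background for the marker counts that follow. Nes, whose reporter marked the sorted cells, was low, at 3.00 FPKM in the JAK2-V617F library and 4.84 FPKM in the control library. Erythroid markers had a median log2 ratio of -0.50, and 14 of 15 had a ratio below 1, or 13 after rescaling to the same sum. Their summed level was 2030 FPKM in the JAK2-V617F library and 3678 FPKM in the control library, and none was at 0. At least 2-fold lower were 3 of them, the globin genes Hbb-b1 (-1.53), Hbb-b2 (-1.37) and Hba-a1 (-1.14, within 2-fold after rescaling to the same sum). Hba-a2 was at 0.86, and it was at least 2-fold higher after rescaling to the same sum. Reads of these near-identical globin copies may not be told apart. Osteoblast markers summed to 4156 FPKM in JAK2-V617F cells and 8179 FPKM in control cells, with 9 of 10 below 1. Of these, 4 were at least 2-fold lower under each scaling, namely the transcription factor gene Sp7 (-1.19), the osteocalcin gene Bglap (-1.60), Dmp1 (-1.89) and Ifitm5 (-1.46). Leukocyte markers summed to 424 FPKM in JAK2-V617F cells and 307 FPKM in control cells, with 7 of 7 above 1. Tyrobp (1.11) and Cd52 (1.03) were at least 2-fold higher, and Ptprc, which encodes CD45, was at 8.79 FPKM in JAK2-V617F cells and 5.38 FPKM in control cells.

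Neutrophil markers summed to 2619 FPKM in JAK2-V617F cells and 2589 FPKM in control cells, but the list was split, with 5 of 10 below 1 and 5 above, or 4 below after rescaling to the same sum. The secondary granule genes Ngp (-1.30), Camp (-1.13, within 2-fold after rescaling to the same sum) and Ltf (-1.33) were at least 2-fold lower in the JAK2-V617F library, and Lcn2 was at -0.85. The primary granule genes Prtn3 (0.66), Elane (0.45), Ctsg (0.26) and Mpo (0.20) and the calprotectin gene S100a9 (0.53) had ratios above 1, none past 2-fold. The other calprotectin gene, S100a8, was at -0.06. B-lineage markers summed to 106 FPKM in JAK2-V617F cells and 118 FPKM in control cells, with 3 of 6 below 1 and Vpreb1 at least 2-fold lower (-1.08, within 2-fold under 2 of the 3 other scalings). Endothelial markers summed to 36.2 FPKM in JAK2-V617F cells and 31.9 FPKM in control cells, with 3 of 6 below 1 and Emcn at least 2-fold higher, at 5.15 FPKM in JAK2-V617F cells and 0.196 FPKM in control cells (2.36). The part of these cell types in the values of the 60 genes was not tested, and in pooled bulk RNA fewer dividing cells cannot be told apart from less of these transcripts per cell.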

How the data were processed

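RNA-seq was analysed in 2 libraries, 1 per genotype. Nanogram amounts of RNA were amplified to cDNA (Ovation RNA-Seq System), sonicated and sequenced on a Genome Analyzer IIx, per the labels' protocols. The authors deposited FPKM values, 1 per gene and library. The submitters' processing notes name Cufflinks, Bowtie2 2.0.6, TopHat2 2.0.7 and cutadapt 1.2.1, with the GRCm38 build. Annotation, strand use, between-library scaling and the treatment of multiply mapped reads are not stated in the sources used here.

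From the deposited FPKM, log2 ratios with a pseudocount of 1 FPKM were computed, which understates the change of low genes. Rows at 1 FPKM or more in a library were kept, and 2-fold was the call. With 1 library per group there is no test. Fragment numbers came from steps in FPKM times effective length (the transcript less 160 nt, the sharpest of 31 offsets tried), over 5569 genes with 1 transcript in GENCODE vM21. Of low genes, 84.0% (JAK2-V617F) and 82.3% (control) lay within 0.2 of a whole fragment. The procedure was tested on simulated data.

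Rows naming several genes (401) were left out, so Foxm1 has no value, nor do Rb1 (3 rows) and Ahsp. Sequences are RefSeq's, the first listed promoter per gene. The genes, the roles and the lists were chosen with earlier results of these data known. The text gives all 60 genes, and of related lists those past 2-fold or, failing that, the 2 farthest from 0, with Kif18b and Kifc1 added after their values were seen. Of marker lists it gives those past 2-fold, with Nes, Ptprc, Hba-a2 and the other neutrophil genes beside them. Python 3.11.15, pandas 2.3.3, NumPy 2.4.6 and SciPy 1.17.1 were used. Alternatives were other pseudocounts, filters and scalings.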

Additional observations from a re-analysis of the deposited data

How the results depend on the processing

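The median log2 ratio of the 60 genes, -0.22 as deposited, was -0.043 with both libraries rescaled to the same FPKM sum and -0.11 with the same upper quartile. It was -0.15 with the median ratio set equal, -0.20 with a pseudocount of 5, and -0.22 with a pseudocount of 0.1, with no filter, at 5 FPKM or more, and over the 45 genes whose locus overlaps no other coding gene (chosen after seeing the data). The number of genes at least 2-fold lower in the JAK2-V617F library was 4, 2 with the same FPKM sum and 3 with each of the other rescalings and with a pseudocount of 5. Ect2 left under all of these and Ccnb2 under the first, while Cenpi and Pttg1 remained. The number at least 2-fold higher was 0 throughout. Of the 60 genes, 35 stayed below 0 and 16 above 0 under every setting, and the sign of 9 depended on the scaling. All the rescalings raised the JAK2-V617F values (factors 1.13, 1.08 and 1.05), and a pseudocount cannot change a sign. The genes above 0 therefore could not move below it, and their number says nothing of how firm those signs are. No paired analysis was possible because each group had 1 library. No replicate could be left out for the same reason. Depth limits the rarest of these transcripts, such as Pttg1.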
